A study of Mus musculus with 3 samples.

Results

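Atoh7 peaks were examined at 9 genes for eye-field and progenitor transcription factors in the mouse retina: Pax6, Six3, Six6, Rax, Lhx2, Meis1, Meis2, Pax2 and Tbx2. A peak was counted for a gene when its midpoint lay inside the RefSeq body of that gene or within 100 kb of it on the mm10 build, and 12 of the 3668 deposited peaks met this rule. The genes were listed by name, with earlier results of these data known, and the rule itself uses no measured value. CUT&RUN, in which an antibody tethers a nuclease that releases the DNA beside the bound protein, was run on C57Bl6/J retina at embryonic day 14, with 2 Atoh7 libraries and 1 IgG control library. The labels name no transgene, deletion or treatment, and nothing in them ties the Atoh7 libraries to separate animals. The authors deposited a single list of positions and widths with no value per library, so depth is unknown, replicate spread and the IgG background are not analysed here, and every count below describes that one list without a test.

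The eye field is the region of the early forebrain that becomes the optic vesicles, and it is marked by overlapping transcription factors, among them Pax6, Six3, Six6, Rax and Lhx2, several of which stay active in retinal progenitors. Atoh7 belongs to the basic helix-loop-helix (bHLH) factors, is made in progenitors about to leave the cell cycle, and most retinal ganglion cells are missing without it. bHLH factors bind as dimers to E-boxes, short sites with the letters CANNTG. Of the 9 genes, 8 encode homeobox or paired-domain factors, while Tbx2 is a T-box gene and so belongs to another family. The homeodomain of Pax2 is only partial. Where a figure labels the genes eye-field genes for short, all 9 are meant, Meis1, Meis2, Pax2 and Tbx2 among them.

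Atoh7 peaks lay inside or near some of these genes, while others had none within 100 kb. A peak was present inside or within 100 kb of 6 of the 9 genes (66.7%, 95% Wilson interval 35.4 to 87.9%), against 34.9% of the 21631 protein-coding genes on chromosomes 1 to 19 and X by the same rule. The lower end of the interval for the 9 genes was close to the value for all genes. The share varied with gene length, at 40.8% of genes of 80 to 250 kb and 33.2% of genes under 50 kb. Meis1, Meis2 and Pax2 fall in the longer range, chosen after the values were seen, and the other genes in the shorter. The value for the longer range lay inside the interval. Meis1 had 4 peaks, Six3 had 3, Pax6 had 2, and Lhx2, Meis2 and Rax had 1 each, while Six6, Pax2 and Tbx2 had none. No peak was centred within 1 kb of either end of any of the 9 genes, a count of 0 of 9 that allows a share of up to 33.3%, against 4.3% of all protein-coding genes. With so low a share among all genes, the absence of gene-end peaks in 9 genes is not set apart from the rest. An intragenic peak, meaning one inside the gene and more than 1 kb from both ends, was found in 1 gene (Meis1), against 5.39% of all protein-coding genes. A distal peak, 1 to 100 kb outside the gene, was found at 5 genes (55.6%, 95% Wilson interval 26.7 to 81.1%), against 29.4% of all protein-coding genes. The same 6 genes had a peak within 50 kb, against 24.4% of all protein-coding genes, and all 9 had one within 200 kb, against 49.1%. Six3 was the only one of the 9 with a peak within 5 kb of an end, against 6.72% of all genes. The wider 50% of peaks gave 6 of 9 genes a peak within 100 kb, against 19.9%, and peaks counted for the nearest protein-coding gene alone gave 4 of 9, against 11.1%. By class, the 12 peaks were 4 intragenic and 8 distal. These intervals cover the counting of genes only.

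**Figure D1:**
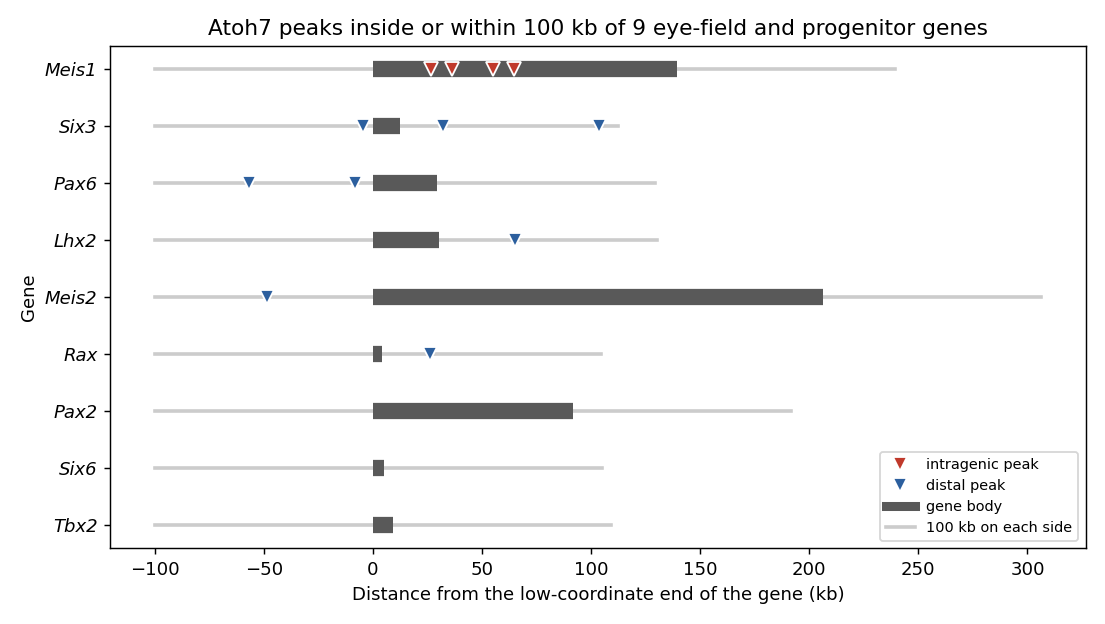
Position of each peak midpoint (triangles) along 9 genes, in kb from the low-coordinate end of each gene body (dark bar), with 100 kb on each side (pale line). The 4 intragenic peaks all lie in Meis1, the 8 distal peaks are spread over 5 genes, and Pax2, Six6 and Tbx2 are empty.

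The RefSeq table gave promoter windows, 250 bases before to 50 bases after an annotated start on GRCm38.p6 (the assembly that mm10 names), for 7 of the 9 genes, 11 windows in all, and no peak overlapped any of them. Among all 32851 windows of the table, 2.73% were overlapped by a peak. The windows of 4 genes are shown with any E-box letters marked. Their nearest peaks were centred 11.5 kb (Six3) to 261 kb (Pax2) from the annotated start. Shown are Six3, which has the nearest distal peak of the 9 genes, and Pax6 at its second annotated start. The other windows are those of Meis1, which holds peaks only deep inside the gene, and the second of Pax2, which has the letters but whose gene has no peak within 100 kb. Each is written 5′ to 3′ on the gene's strand, with capitals on the letters CANNTG and the annotated start at base 251.
Six3, chr17:85620584-85620883, plus strand: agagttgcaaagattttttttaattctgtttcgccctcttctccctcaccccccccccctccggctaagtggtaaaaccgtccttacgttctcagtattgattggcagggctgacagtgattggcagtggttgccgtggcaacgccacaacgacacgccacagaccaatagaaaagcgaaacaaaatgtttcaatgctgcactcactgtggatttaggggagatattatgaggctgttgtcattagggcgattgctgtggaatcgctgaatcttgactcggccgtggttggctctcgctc
Pax6, chr2:105682213-105682512, plus strand: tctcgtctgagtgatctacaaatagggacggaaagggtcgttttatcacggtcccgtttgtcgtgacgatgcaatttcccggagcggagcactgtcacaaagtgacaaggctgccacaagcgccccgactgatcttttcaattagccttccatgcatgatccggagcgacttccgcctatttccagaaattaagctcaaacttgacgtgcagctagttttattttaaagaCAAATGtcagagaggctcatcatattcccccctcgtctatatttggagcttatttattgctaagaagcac
Meis1, chr11:19018920-19019219, minus strand: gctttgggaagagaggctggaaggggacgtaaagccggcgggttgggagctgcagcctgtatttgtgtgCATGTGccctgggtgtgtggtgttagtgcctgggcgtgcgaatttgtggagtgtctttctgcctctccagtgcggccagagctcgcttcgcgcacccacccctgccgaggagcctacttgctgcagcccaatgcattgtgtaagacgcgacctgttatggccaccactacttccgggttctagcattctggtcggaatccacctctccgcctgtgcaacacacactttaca
Pax2, chr19:44755502-44755801, plus strand: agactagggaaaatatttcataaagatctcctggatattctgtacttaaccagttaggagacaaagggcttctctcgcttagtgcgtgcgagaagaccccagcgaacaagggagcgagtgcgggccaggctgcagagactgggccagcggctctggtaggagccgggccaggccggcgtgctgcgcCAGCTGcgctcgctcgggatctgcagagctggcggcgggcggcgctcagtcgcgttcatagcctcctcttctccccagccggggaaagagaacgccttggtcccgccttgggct
The Six3 window had no CANNTG. The Pax6 window had CAAATG at base 231, the Meis1 window CATGTG at base 70 and the Pax2 window CAGCTG at base 187, and none of these sites lay inside a peak.

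Over the 11 windows, 5 (45.5%) held CANNTG, against 72.3% of all promoter windows and 67.1% of the 898 windows that a peak overlapped. CAGCTG was present in 1 of the 11 windows (9.09%), the Pax2 window shown, against 16.3% of all windows and 28.0% of those overlapped by a peak. CANNTG and CAGCTG read the same on both strands, every start position was searched, and overlapping matches were allowed. The median G+C content was 58.7% in the 11 windows, against 52.7% in all windows and 63.0% in those with a peak, and its part in these shares was not tested. The windows without CANNTG were the first of Pax6, of Lhx2 and of Pax2 and the only ones of Six3, Six6 and Meis2. No sequence of the 12 peaks themselves was read.

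Pax6, a paired-domain and homeodomain factor needed for eye formation and for the competence of progenitors to make most retinal cell types, had 2 distal peaks, both upstream. The nearer one (chromosome 2, 105660287 to 105660771, 485 bp) was centred 8.37 kb before the gene (chromosome 2, 105668896 to 105698410, plus strand). It lay inside Paupar, a long noncoding RNA gene neighbouring Pax6, 814 bp from an end of that gene, and inside the longer antisense gene Pax6os1. The farther peak (105612186 to 105612416, 231 bp) was centred 56.6 kb before Pax6 and 786 bp inside one end of Gm35946, also a long noncoding RNA gene. Pax6 was the nearest protein-coding gene to both. Just outside the 100 kb limit, a peak of 346 bp was centred 106 kb beyond Pax6, inside Elp4, a neighbouring gene whose introns are known to hold remote control elements of Pax6.

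Six3, a homeobox gene of the sine oculis family that defines the anterior forebrain and eye field, had 3 distal peaks. The first (chromosome 17, 85609060 to 85609646, 587 bp) was centred 4.26 kb before the annotated body of Six3 (85613608 to 85626191, plus strand), inside the antisense gene Six3os1. The start shown in the promoter window above lies farther into the gene, so the same peak was 11.5 kb before that start. The second (85645556 to 85646254) was the widest of the 12 at 699 bp, a width reached by 200 of the 3668 peaks (5.45%), and lay 19.7 kb beyond Six3. It was centred between Six3 and Six2, a related gene known from kidney progenitors, and was nearer to Six2, at 16.8 kb. The third (85717142 to 85717418, 277 bp) lay 91.1 kb beyond Six3, on the far side of Six2 and 29.03 kb from it, inside the long noncoding RNA gene CJ186046Rik. By position alone, 1 of the 3 peaks had Six3 as its nearest protein-coding gene and the other two had Six2. The next peaks were far from Six3, 1115 kb below and 1312 kb above it.

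Six6, the closest relative of Six3 in the eye field and a gene needed for full expansion of the progenitor pool, had no peak in its window (chromosome 12, body 72939882 to 72944899). The nearest peak (72831787 to 72832060, 274 bp) was 108 kb away and was nearer to Ppm1a, at 32.1 kb. The same peak was the nearest one to the neighbouring gene Six4, at 268 kb, which was named after its value was seen. By this rule the eye-field pair differed in this list, with 3 peaks in the window of Six3 and 0 in that of Six6, and in windows of nearly equal length (213 and 205 kb). The contrast was smaller by other rules, with 3 and 1 peaks within 200 kb, and 1 and 0 when peaks were counted for the nearest protein-coding gene alone.

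Rax, a paired-like homeobox gene and one of the earliest requirements for eye formation, had 1 distal peak on chromosome 18 (65960812 to 65961272, 461 bp), centred 21.95 kb above the gene (65934639 to 65939089). That peak lay inside Cplx4, which encodes a complexin of retinal synapses, 5.32 kb from an end of it, so Cplx4 and not Rax was the gene in which it fell. The peak lay within 100 kb of 5 protein-coding genes, the most for any of the 12 peaks. Lhx2, a LIM-homeobox gene needed to turn the optic vesicle into the optic cup, had 1 distal peak on chromosome 2 (38403994 to 38404504, 511 bp), centred 34.5 kb downstream of the gene (38339271 to 38369737, plus strand) in sequence with no annotated gene. The closest annotated gene end of any kind was that of Lhx2 itself.

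Meis1 and Meis2 encode TALE homeodomain proteins, which bind DNA together with PBX and HOX proteins and are active in early retinal progenitors. Meis1 (chromosome 11, 18880428 to 19019651, minus strand, 139 kb) held 4 intragenic peaks and no distal one. They stood at 18906954 to 18907495 (542 bp), 18916618 to 18917202 (585 bp), 18935479 to 18935985 (507 bp) and 18944880 to 18945359 (480 bp). Measured along the direction of transcription, they fell between 53.5% and 80.8% of the gene body, 73.8 to 112 kb from the annotated start shown above. The midpoints were 9.69, 18.8 and 9.39 kb apart, and the whole run spanned 38.4 kb. The next peaks outside the run were 2315 kb below and 193 kb above it. Across the list, 114 peaks (3.11%), those of Meis1 included, belonged to a run of 4 at least as tight. Only Meis1, of all protein-coding genes, had these 4 peaks within 100 kb.

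Meis2 (chromosome 2, 115861264 to 116067537, minus strand) is longer, at 206 kb, yet had no peak inside. Its 1 distal peak (115812706 to 115813304, 599 bp) lay 48.3 kb downstream, and BC052040 was nearer to it, at 34.2 kb. Because long genes offer more room for intragenic peaks, both were read against the 2415 protein-coding genes of 80 to 250 kb, a range chosen after the values were seen to take in Meis1, Meis2 and Pax2. Of those genes, 16.9% had an intragenic peak and 9 (0.373%) had 4 or more. Meis1 was 1 of these 9 by construction, because the cut of 4 was its own count. Over protein-coding genes of any length, 1.88% had at least 4 peaks inside or within 100 kb, as Meis1 did, and 4.84% had at least 3, as Six3 did.

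Pax2, a paired-domain gene of the optic stalk and optic disc, had no peak in its window (chromosome 19, body 44746601 to 44838269), although the gene is 91.7 kb long. The nearest peak (45016197 to 45016423, 227 bp) was 178 kb above it, inside Lzts2, where a second peak lay 179 kb away. Tbx2, a T-box gene of the dorsal retina, had its nearest peak (86039476 to 86039693, 218 bp) 198 kb above the gene (chromosome 11, 85832615 to 85841948). That peak was also the nearest to the adjacent relative Tbx4, at 123 kb, and was 18.6 kb from Brip1. The median distance to the nearest peak over the 9 genes was 34.5 kb (order-statistic 95% interval 4.26 to 178 kb, n = 9), against 208 kb over all protein-coding genes. Each of the 9 genes was nearer to a peak than that median, the farthest being Tbx2, and 48.8% of all genes had a peak as near as Tbx2 did.

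**Figure D2:**
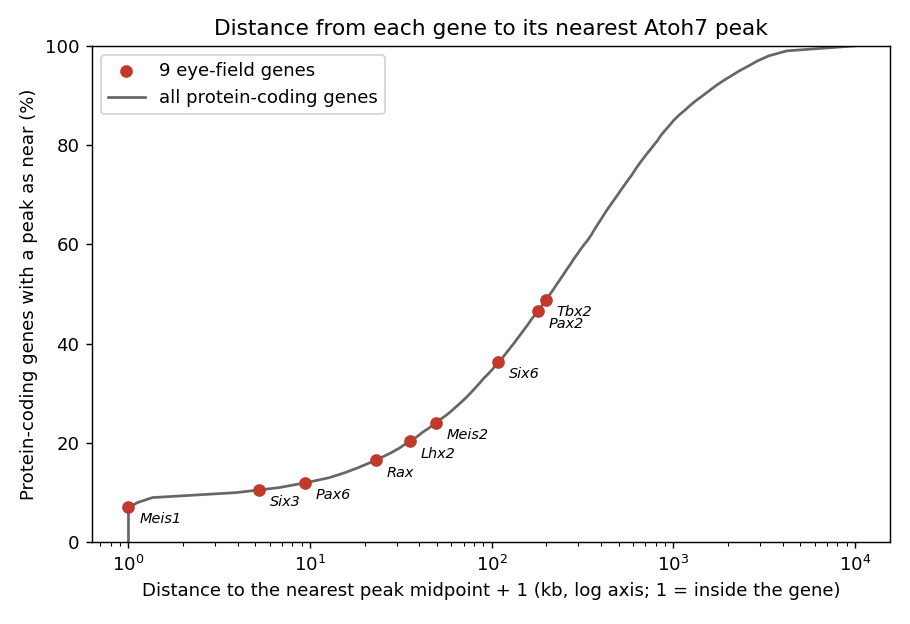
Percentage of protein-coding genes whose nearest peak is as near as the distance on the x axis (kb plus 1, log axis; grey line), with the 9 eye-field and progenitor genes as red points. The points run from Meis1 at 7.17% of genes to Tbx2 at 48.8%.

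The authors' running numbers in the peak names rise along each chromosome, and 51.1% of the numbers up to 7185 are present, so the list was reduced by a step that the sources used here do not give. Between the peaks that flank the windows of the 9 genes there were 46 numbers, of which 12 (26.1%) were present. These stretches end at the first listed peak beyond 100 kb on each side, so they run past the windows, and the positions of the absent numbers within them are not known. Any number between a window edge and its flanking peak is absent by construction, and the flanking peaks themselves are not counted. This lowers the share of 26.1%, which is therefore not comparable with the 51.1% of the whole list. Of the numbers between the flanking peaks, 7 of 11 were absent around Meis1, 5 of 7 around Pax6, 5 of 8 around Six3, 5 of 6 around Meis2 and 4 of 5 around Rax. Inside Meis1 the 4 peaks carry 804 to 807 without a gap, so no numbered peak was removed between them. The Lhx2 peak is number 3578, between peaks 3577 and 3579, so that none was removed over the 164 kb below and 209 kb above Lhx2. At Tbx2, a single number was absent between the flanking peaks 1058 and 1060, which stand 480 kb below and 198 kb above the gene. Around Six6, 3 numbers were absent and around Pax2 4 were absent between the flanking peaks. At Pax6 number 3791 was missing between the upstream peaks, and at Six3 number 2936 was missing between the first and the second.

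The 12 peaks were broad for this list. Their median width was 509 bp (order-statistic 95% interval 461 to 587 bp, n = 12), against 381 bp over all peaks, and 10 of 12 (83.3%) were wider than that overall median, which 49.8% of all peaks exceeded. The exceptions were the farthest peaks of Pax6 and of Six3, at 231 and 277 bp. The 4 Meis1 peaks varied little, at 480 to 585 bp. The 12 peaks came from 6 genes, and the interval takes each peak as independent, which peaks at the same gene may not be. The 8 peaks centred 100 to 200 kb from one of the 9 genes had a median width of 264.5 bp, and 7 of the 8 were no wider than the overall median. Width is not a measure of how much Atoh7 was bound, and these differences were not tested.

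**Figure D3:**
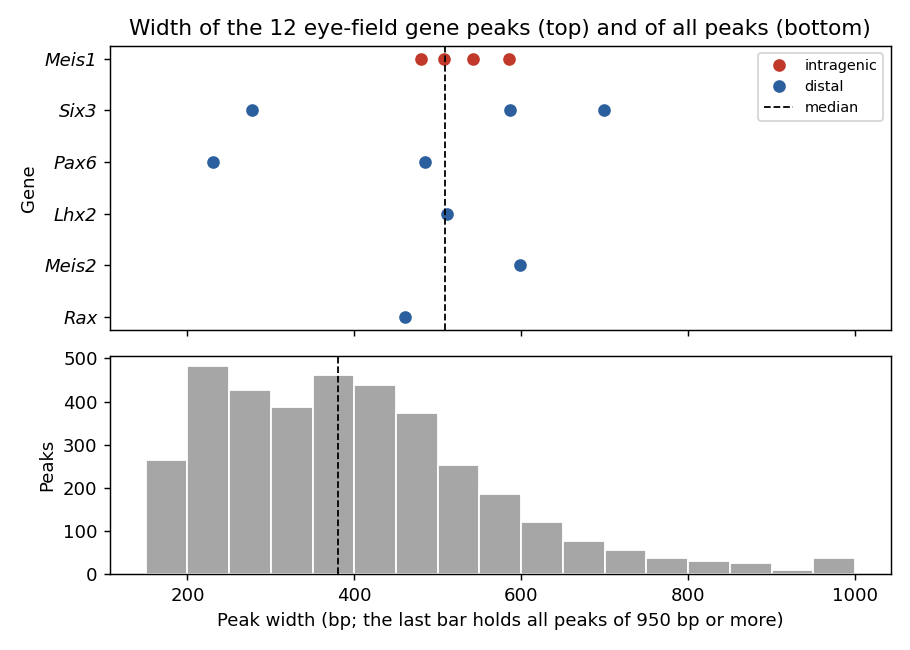
Width in bp of the 12 peaks at eye-field and progenitor genes (top, a row per gene) and of all 3668 peaks (bottom, number of peaks per 50 bp). Dashed lines mark the medians, 509 bp for the 12 peaks and 381 bp for all peaks.

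Many of the 12 peaks lay in or beside another annotated gene. For 8 of 12 (66.7%) the nearest protein-coding gene was the one the peak was counted for. These were the Meis1 and Pax6 peaks, the Lhx2 peak and the first Six3 peak. For 4 of 12 (33.3%) the midpoint was inside a long noncoding RNA gene, against 11.6% of all peaks on chromosomes 1 to 19 and X, all of them at Pax6 or Six3. Only the 2 Pax6 peaks were within 1 kb of an annotated gene end of any kind (16.7%), against 26.5% of all peaks. Of the 8 distal peaks, 3 were upstream and 4 downstream of the gene they were counted for, and for the Rax peak the strand was not given.

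Genes that work with these factors, or belong to their families, were counted by the same rule. Among 9 genes for TALE partners, which bind DNA with MEIS proteins or compete with them, 6 had a peak within 100 kb. This share (66.7%, Wilson interval 35.4 to 87.9%) stood against 34.9% of all protein-coding genes, a value close to the lower end of the interval. There were 8 peaks in all. Unlike those of the 9 eye-field and progenitor genes, these peaks included gene-end peaks, at Pbx4 and Pknox1. The counts (0 of 9 eye-field and progenitor genes and 2 of 9 TALE partners, 22.2%) are too small to set the lists apart. The Wilson interval of the gene-end share for the TALE partners, 6.32 to 54.7%, began just above the 4.3% of all protein-coding genes. Pbx4, a PBX-family partner of MEIS proteins, had a peak (chromosome 8, 69832322 to 69832726, 405 bp) centred 100 bp from its annotated start and covering the whole promoter window, the only gene of these lists whose RefSeq window a peak overlapped. That window is shown as the one stretch of peak sequence that could be read for these lists, and it held no CANNTG. The peak reaches past the window on both sides, and its sequence there was not read.
Pbx4, chr8:69832374-69832673, plus strand: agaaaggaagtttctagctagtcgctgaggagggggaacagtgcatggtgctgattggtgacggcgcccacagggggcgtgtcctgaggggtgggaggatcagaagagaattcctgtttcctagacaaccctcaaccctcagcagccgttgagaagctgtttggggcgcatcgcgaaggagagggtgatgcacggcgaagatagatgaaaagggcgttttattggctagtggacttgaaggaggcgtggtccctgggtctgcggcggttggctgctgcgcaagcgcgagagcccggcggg
Pknox1, which encodes the MEIS-related protein PREP1, had a peak of 217 bp centred 423 bp outside the gene. Pknox2, its paralog, held 2 intragenic peaks of 679 and 764 bp, and Pbx3, another PBX gene, held 1 of 313 bp. Meis3 had 2 distal peaks, 1 of them 1.59 kb upstream of the gene and the farther one nearer to Napa. Pbx2 had 1 at 43.9 kb, nearer to Ppt2. Tgif1 and Tgif2 had none.

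Among 21 family relatives (other genes of the Pax, Lhx and Tbx families and of the family of Six3), 7 had a peak within 100 kb (33.3%, 95% Wilson interval 17.2 to 54.6%), a share near the 34.9% of all protein-coding genes. Of their 14 peaks, 3 were the Six3 peaks counted again for Six2. Pax3 and Pax7, paired-domain genes of neural crest and muscle, held 2 and 1 intragenic peaks. Pax7 also had 1 distal peak, at 72.0 kb and nearer to Klhdc7a. Lhx4, a LIM-homeobox gene of pituitary and motor neurons, held 1 intragenic peak. It also had 2 distal peaks, at 38.7 and 93.3 kb, nearer to Qsox1 and Acbd6. Lhx3, the paralog of Lhx4, had 2 distal peaks, which were nearer to Tmem250-ps and Ccdc187, and Lhx1, a horizontal cell gene, had 1. Six5 had a peak centred 535 bp upstream of its start, which was nearer to Dmpk. None of the relatives Tbx3, Tbx4 and Tbx5 had a peak, as was the case for Tbx2.

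Among 20 other optic and progenitor factors, 10 had a peak within 100 kb (50%, 95% Wilson interval 29.9 to 70.1%), with 14 peaks. The share of all protein-coding genes, 34.9%, lay inside this interval. None of the 14 peaks was within 1 kb of an end of a listed gene (0 of 20 genes, which allows a share of up to 15.0%). Among all protein-coding genes that share was 4.3%, so this absence is not set apart from the rest. Vax2, a homeobox gene of the ventral retina, held 1 intragenic peak of 177 bp, the narrowest width in the list. Hmx1, a homeobox gene of the eye and ear, had 3 distal peaks, at 44.7, 47.9 and 54.2 kb downstream. Hes1, a Notch effector that restrains neurogenesis, and Nr2e1, a nuclear receptor gene of neural progenitors, had 1 distal peak each, at 45.0 and 95.5 kb. Nr2f1, Zic2, Vsx1, Otx2 and Vax1 had 1 distal peak each, at 7.24 to 89.4 kb. Another protein-coding gene was nearer to the peaks of Nr2e1 (Ostm1), Zic2 (Zic5), Vsx1 (Entpd6) and Vax1 (Slc18a2). The farthest Hmx1 peak was likewise nearer to Cpz. Sox2, Sox9, Ccnd1, Fgf15, Sfrp2, Nr2f2, Foxd1, Otx1 and Mitf had none.

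**Figure D4:**
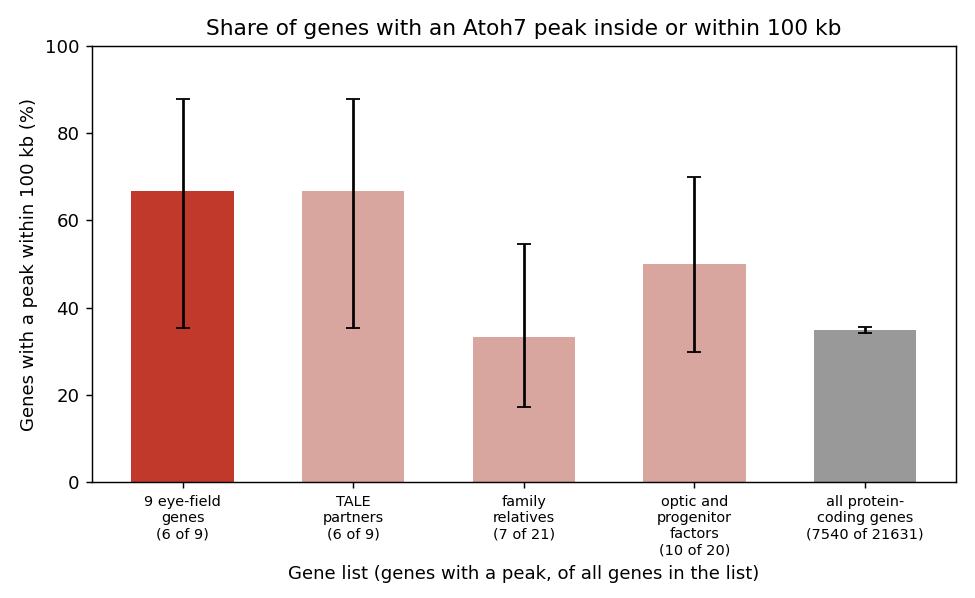
Percentage of genes with a peak midpoint inside or within 100 kb, for the 9 eye-field and progenitor genes, 3 related lists and all protein-coding genes (95% Wilson intervals, which cover the counting of genes only). The bar for the 9 eye-field and progenitor genes stands at 66.7% and that for all protein-coding genes at 34.9%. The lower end of the interval for the 9 genes is 35.4%.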

How the data were processed

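The submitters' processing notes name MACS2 2.2.7.1, Bowtie2 2.3.5, Picard 2.0.1, bedtools and SAMtools with the mm10 build, without roles. The authors deposited 1 list of 3668 peaks with chromosome, start, end, width and name, counted from 1. Which libraries entered each step, and depth, are not given in the sources used here. Gene bodies were read from RefSeq's GRCm38.p6 gene table, which is without strand or exons, and starts and strands from its promoter table, which held 7 of the 9 genes. Peaks were placed by midpoint, and 6 peaks off chromosomes 1 to 19 and X were left out of shares of peaks by position. No test was run, because there is 1 list and no value per library. Wilson intervals (95%) and the limit of 3 counts for a share of 0 cover counting only. Counting was checked on 200 genes with planted peaks, all recovered in their class. Genes and lists were chosen with earlier results of these data known. Named genes were the 9 genes, list members with a gene-end or intragenic peak, up to 4 per list with the most peaks (ties in alphabetical order), and genes hosting or nearer to a peak. Other list members, Lhx1 among them, and the nearest genes of peaks beyond 100 kb were named after their values were seen. Some list members enter the counts but are not reported here by name. Alternatives were windows of 50 and 200 kb, gene ends of 5 kb, any overlap of 1 bp, the wider 50% of peaks, the nearest gene only, annotated starts only and peak edges. Software was scipy 1.17.1, pandas 2.3.3, matplotlib 3.10.9 and numpy 2.4.6 under Python 3.11.15.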

Additional observations from a re-analysis of the deposited data

How the results depend on the processing

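Of 24 alternative values, 20 stayed within 1.5 times the reported count, the limit itself included, or within the order-statistic interval of the reported median. The other 4 were these. With a 200 kb window the 9 genes had 20 peaks (12 at 100 kb). All 9 then had at least 1 peak, where 49.1% of all protein-coding genes did. That count of genes sat exactly at the 1.5 limit and is among the 20 values that stayed. With gene ends widened to 5 kb, 1 gene (Six3) had a gene-end peak, against 6.72% of all. CANNTG was found in 1 window with 1 window per gene, and CAGCTG in 1, against 5 windows for CANNTG in all windows; both settings were chosen after the data were seen, and both count fewer sites by construction. Counting only peaks whose nearest protein-coding gene was one of the 9 genes left 4 genes and 8 peaks, against 11.1% of all genes. Rax and Meis2 lost theirs, and both counts sat exactly at the 1.5 limit, among the 20 values. With the wider 50% of peaks, 6 genes kept 10 peaks, against 19.9% of all genes. Leaving out a replicate was not possible, because the list has no value per library. No paired analysis was possible because the list carries no values per sample. Depth sets which peaks could be called and is unknown.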

Other observations

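Among the 9 protein-coding genes of 80 to 250 kb with at least 4 intragenic peaks, named here after their values were seen, Meis1 stood beside genes of other pathways. Rbpj, which encodes the factor through which Notch acts on DNA, held 4 intragenic peaks within 13.5 kb, and Casz1, a zinc finger gene of retinal progenitors, held 4 within 26.1 kb. Slit1, which encodes a secreted axon repellent, held 6, with the tightest 4 spanning 41.2 kb, and Epb41, a membrane skeleton gene, held 5. The others were Clmp, Igsf21, Macrod1 and Tspear with 4 each. In Meis1, Slit1, Epb41, Clmp and Rbpj the running numbers between the first and the last intragenic peak were all present, and in the other 4 genes 57.1 to 80% of them were.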
